A study of Mus musculus with 4 samples.

Results

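The genes described here are 34 genes of the interferon response and of antigen presentation, taken by symbol from 29871 gene rows measured in mouse intestinal tumours. All 34 were present in the table. They comprised 16 targets of type I interferon, 6 targets of interferon gamma, 7 genes of MHC class I presentation and 5 genes of MHC class II presentation. RNA came from adenomas of the small intestine. The control group had the genotype APC Min/+, a mouse model of intestinal tumours with a truncating mutation in 1 of its alleles of Apc, and is called wild type in the labels because its PAF gene is intact. The other group had the genotype PAF KO; APC Min/+, so the Apc allele was common to both groups. PAF is read as PCNA-associated factor, the product of Pclaf, from knowledge of this study. Each group had 2 libraries, and the sources used here do not give the age, sex or number of animals behind a library, or the altered part of the PAF gene. Symbols are upper case in the table (IFIT1, IRF7, IIGP1, CD74, B2M) and are written here in mouse style.

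Interferons are secreted proteins that warn cells of infection. Type I interferons act through the receptor Ifnar1/Ifnar2 and a complex that holds Stat2 and Irf9 and binds the interferon-stimulated response element (ISRE) of genes that block virus replication. Interferon gamma, made chiefly by T and NK cells, acts through the gamma-activated site (GAS) of its target genes, and it raises Irf1, guanylate-binding proteins, the immunoproteasome and both classes of MHC. In the intestine, MHC class I is present on nearly all cells, while class II is carried by dendritic cells, macrophages and B cells and can be induced on epithelial cells.

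Promoters are shown first because the type I and gamma targets are read through the elements named above. Of the 34 members, 25 matched a RefSeq promoter (assembly GRCm38.p6, 250 bases before to 50 after each gene's start). Searches used the ISRE core (GAAA, any 2 bases, GAAA) and the GAS motif TTCNNNGAA, on both strands. The ISRE core was in the window of 8 of 12 type I targets, 4 of 5 gamma targets, 1 of 6 class I genes and 0 of 2 class II genes, against 3.99% of the 27025 genes with a promoter. GAS matches were in 2, 2, 1 and 0 of the same sets, against 9.55% of all genes. The motifs overlapped each other in 24 of 32851 promoters. Zbp1, Usp18, Oas2, Mx1, Iigp1, Nlrc5, Ciita, Cd74 and H2-Ab1 were not matched. The stretches below read 5′ to 3′ on the gene's strand with motif letters in capitals; Isg15, Ddx58, Irf1, Irgm1, B2m and Psmb8 are the most abundant members of their class with a motif, and Ifit1 and Gbp2 were added after their values were seen, as members with large differences in 1 knockout library.
Isg15 (chr4:156200835-156200936, minus strand, 3 overlapping ISRE cores): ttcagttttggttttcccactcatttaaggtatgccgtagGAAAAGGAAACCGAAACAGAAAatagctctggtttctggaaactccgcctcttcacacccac
Ddx58 (chr4:40239814-40239863, minus strand, ISRE core just after the start): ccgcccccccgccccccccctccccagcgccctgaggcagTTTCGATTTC
Ifit1 (chr19:34640745-34640853, plus strand, 2 ISRE cores): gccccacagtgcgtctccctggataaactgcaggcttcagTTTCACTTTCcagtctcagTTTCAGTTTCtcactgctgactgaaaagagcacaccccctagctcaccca
Irf1 (chr11:53769884-53769972, plus strand, GAS): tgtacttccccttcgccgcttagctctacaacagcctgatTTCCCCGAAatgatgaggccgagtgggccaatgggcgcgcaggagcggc
Irgm1 (chr11:48871409-48871490, minus strand, 2 overlapping ISRE cores): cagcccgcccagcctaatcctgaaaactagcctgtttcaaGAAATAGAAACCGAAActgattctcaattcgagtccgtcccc
Gbp2 (chr3:142620564-142620653, plus strand, ISRE core): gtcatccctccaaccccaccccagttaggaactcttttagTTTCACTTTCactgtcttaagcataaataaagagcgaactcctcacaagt
B2m (chr2:122147508-122147597, plus strand, ISRE core): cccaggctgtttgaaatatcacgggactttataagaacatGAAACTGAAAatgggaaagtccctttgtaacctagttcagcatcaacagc
Psmb8 (chr17:34198058-34198146, plus strand, GAS): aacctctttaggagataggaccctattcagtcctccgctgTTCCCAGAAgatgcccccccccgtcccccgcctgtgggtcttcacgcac

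Values are FPKM, which are fragments normalised to transcript length and to library depth. Depth was estimated, from the worth of 1 fragment in low values, at about 13000000 and 17000000 fragments for controls 1 and 2 and about 16000000 and 24000000 for knockouts 1 and 2. The PAF row was at 17.9 and 17.8 FPKM in controls 1 and 2, at 4.13 in knockout 1 and at 11.4 in knockout 2, so the transcript was lower but present in both libraries labelled as knockouts. The control libraries differed by 2.43 times the squared difference that counting alone gives (median over 690 genes with 1 transcript), and the knockout libraries by 78.5 times (668 genes). Xist, the RNA of the inactive X chromosome, was at 46.4 FPKM in knockout 2, while the other 3 libraries had at most 0.00861. Eif2s3y, carried on the Y chromosome, read 31.7 and 31.0 FPKM in controls 1 and 2, 26.0 in knockout 1 and 0 in knockout 2. Uty, Kdm5d and Ddx3y, also carried there, were likewise at 0 in knockout 2 only. By these markers knockout 2 read as female and the other 3 libraries as male. Sex thus cannot be separated from other differences of knockout 2, and its part in the results was not tested. In whole adenomas, fewer cells of a type and less RNA per cell cannot be told apart.

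The 2 knockout libraries lay apart from each other in every class. Knockout 2 read higher than knockout 1 for all 34 members, and for 31 of 31 members that passed the filter (an average over the 4 libraries of 1 FPKM or more), where 61.8% of the 13716 tested rows did so. Knockout 1 was the lowest of the 4 libraries for 31 of the 34 members, and knockout 2 the highest for 23. A total of 19 of 31 tested members had knockout 1 below both controls and knockout 2 above both, against 22.6% of all tested rows. Every tested member was above 1 FPKM in both controls, so none was tested through a high knockout value alone.

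In the comparison of the groups, 0 of 31 tested members passed limma's test (Benjamini-Hochberg adjusted p under 0.05 over all tested rows, 0.0729% of which were called), and 2 had an unadjusted p under 0.05, where 13.2% of all tested rows did. Both knockouts lay below both controls for 7 members, or 7 of 31 against 30.2% of tested rows. Both lay above both controls for 1 member, against 21.5% of tested rows. Neither count exceeded the background. Each knockout library was also fitted alone against the controls, with the lone library assumed to vary as the controls do. In that fit 21 members were lower and 0 higher in knockout 1 (limma adjusted p under 0.05; 14.4% and 6.27% of all tested rows), and 3 were lower and 17 higher in knockout 2 (27.1% and 34.1%). At 1 log2 unit, 0 of 31 members were higher in knockout 1, against 3.01% of tested rows. With 2 libraries against 2, a permutation test of a single value cannot give p below 0.333.

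**Figure D1:**
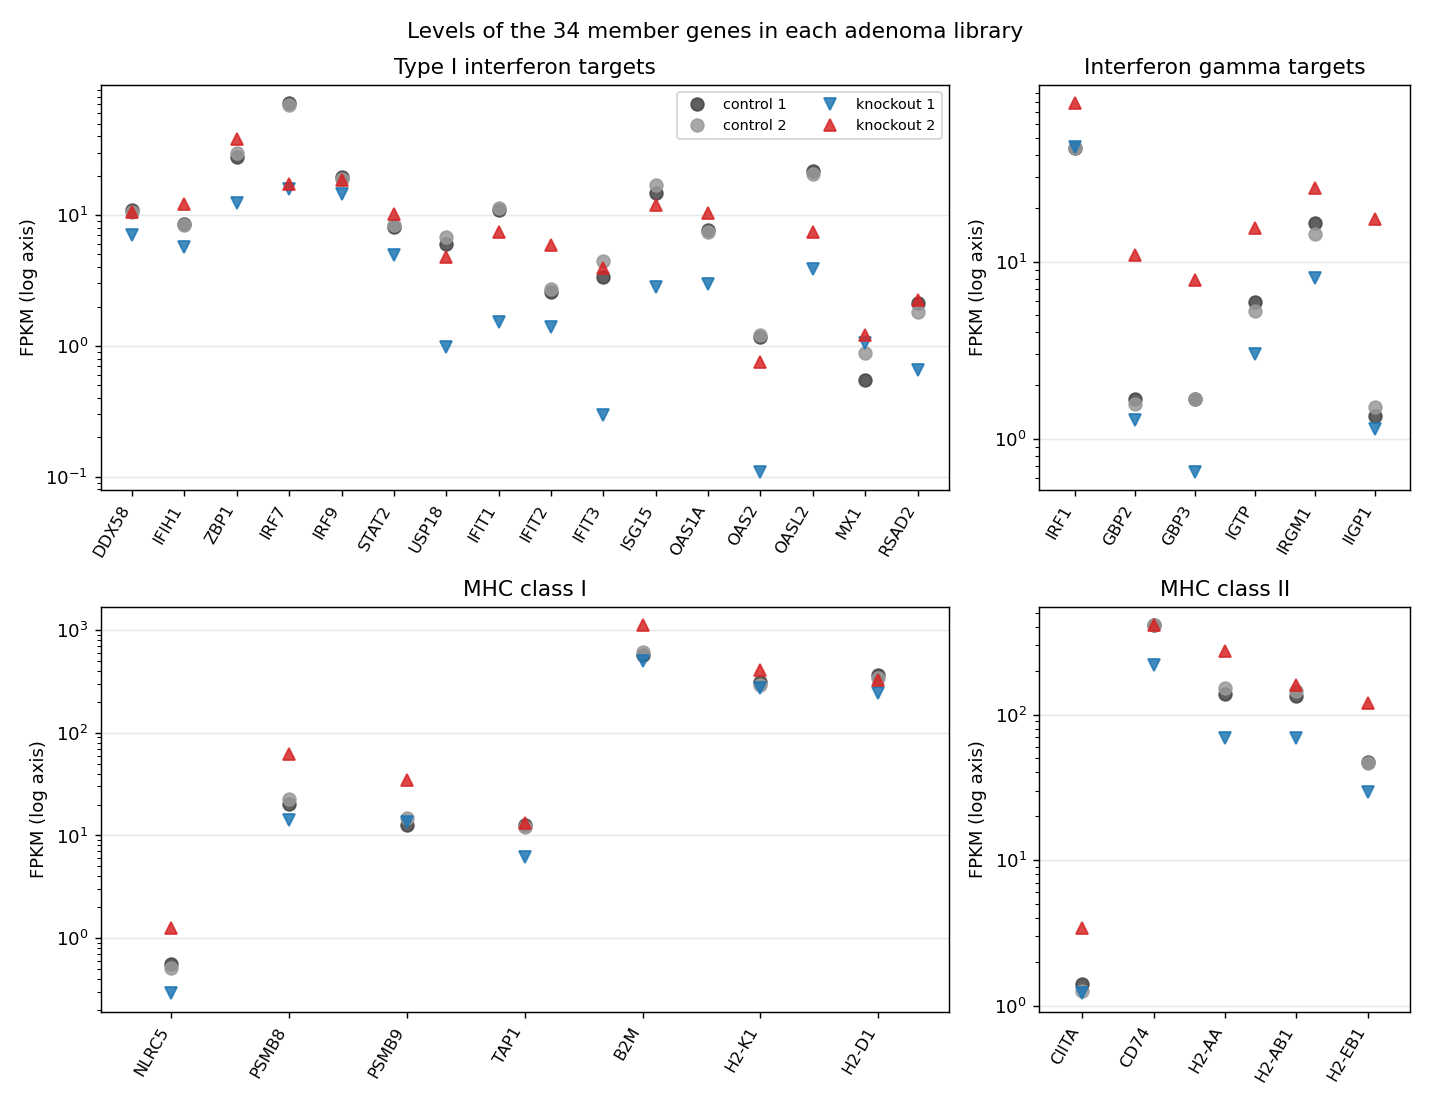
FPKM (log axis) of each member in the 4 libraries, in panels for the 4 classes; circles are controls and triangles knockouts. The control circles nearly coincide, the downward triangles of knockout 1 are the lowest points for 31 of 34 members, and the upward triangles of knockout 2 lie above them throughout.

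Type I interferon targets were lowest in knockout 1. All 14 tested targets were below the control mean there (63.0% of all tested rows were), with a median difference of -1.13 on the log2(FPKM + 1) scale, while in knockout 2 the median was 0.00 with 7 lower and 7 higher (54.5% of all tested rows were higher). Over all tested rows the medians were -0.11 and 0.09. A log2 difference of -1 or beyond was reached by 8 of the 14 in knockout 1 (4.41% of all tested rows) and by 2 in knockout 2 (10.6%). Summed over the 16 targets, knockout 1 held 34.7% and knockout 2 74.5% of the control mean FPKM. Without Irf7, the target of highest FPKM, these were 40.5% and 98.4%.

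Irf7, the transcription factor that amplifies type I interferon production, was the member with the smallest p and was low in both knockouts. It read 71.4 and 69.9 FPKM in the control libraries, 15.8 in knockout 1 and 17.2 in knockout 2. The knockout values were 22.3% and 24.3% of the control mean, and the groups did not overlap. Its log2 fold change of -2.04 (SE 0.154; limma adjusted p = 0.175) did not pass the threshold. Phrf1, a neighbour on the opposite strand whose span overlaps Irf7 in the GRCm38 annotation, read 22.4 and 22.7 against 18.4 and 15.9 FPKM. The sources used here do not give whether the counting used strand.

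Other regulators and sensors showed smaller differences. Irf9, the DNA-binding partner of Stat2, read 19.6 and 18.9 FPKM in the controls against 14.4 and 18.6. Its span overlaps that of Rnf31 on the same strand in the GRCm38 annotation. Rnf31 read 15.2 and 14.7 against 8.65 and 8.60 FPKM, so the reads of the pair are uncertain. Stat2 read 8.11 and 8.43 against 4.91 and 10.2 FPKM, on either side of the controls. The proteins of Irf9 and Stat2 belong to the complex that type I interferon activates. Usp18, which removes Isg15 from proteins and dampens receptor signalling, read 5.97 and 6.78 in the controls, 0.985 in knockout 1 and 4.77 in knockout 2 (15.4% and 74.9% of the control mean).

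The RNA sensors followed the order knockout 1 below knockout 2. Ddx58 (RIG-I), which recognises viral RNA ends, read 10.9 and 10.5 FPKM in the controls against 7.09 and 10.5. Ifih1 (MDA5), a sensor of long double-stranded RNA, read 8.51 and 8.46 against 5.75 and 12.1; its log2 fold change of -0.01 (SE 0.378) turned positive under quantile scaling and median centring. Zbp1, a sensor of Z-form nucleic acid that can start necroptosis, read 27.6 and 30.0 against 12.3 and 38.3 FPKM. Knockout 1 was below both controls for all 3 sensors, and knockout 2 was above them for Ifih1 and Zbp1.

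Among antiviral effectors, Oasl2 was the other member low in both knockouts by more than 1 log2 unit. This member of the oligoadenylate synthetase family read 21.6 and 20.7 FPKM in the control libraries, 3.844 in knockout 1 and 7.48 in knockout 2. Its log2 fold change was -1.79 (SE 0.329; limma adjusted p = 0.257), and the groups did not overlap.

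Ifit1, whose protein binds viral RNA lacking a normal cap and whose promoter is shown above, read 10.97 and 11.4 FPKM in the control libraries, 1.51 in knockout 1 and 7.36 in knockout 2. That is 13.5% and 66.0% of the control mean (log2 fold change -1.41, SE 0.648; limma adjusted p = 0.443). Isg15, a ubiquitin-like protein attached to other proteins, read 14.8 and 17.1 against 2.80 and 11.9 FPKM (log2 fold change -1.28, SE 0.659; limma adjusted p = 0.467). For both genes the groups did not overlap, and knockout 1 was the library farther from the controls.

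Ifit3, a partner of Ifit1, had the largest proportional gap of the tested type I targets between the knockout libraries. It read 3.38 and 4.45 FPKM in the control libraries, 0.298 in knockout 1 and 3.95 in knockout 2, a ratio of 13.3 between the knockouts. The knockout 1 value rests on about 8.1 fragments, and knockout 2 lay between the controls. Ifit2, another member of the family, read 2.59 and 2.70 against 1.39 and 5.86 FPKM. Oas1a, which makes the activator of RNase L, read 7.64 and 7.36 against 2.96 and 10.4. Rsad2 (viperin) read 2.11 and 1.82 against 0.653 and 2.26 FPKM. For Ifit2, Oas1a and Rsad2, knockout 1 was below and knockout 2 above both controls. Near-identical relatives of the Ifit and Oas genes make the division of reads among them uncertain.

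Oas2 and Mx1 were below the filter and were not tested. Oas2 read 1.16 and 1.204 FPKM in the control libraries, 0.109 in knockout 1 (about 6.7 fragments) and 0.758 in knockout 2. Mx1, an antiviral GTPase, read 0.553 and 0.881 against 1.04 and 1.21 FPKM. It was the type I target with both knockouts above both controls.

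**Figure D2:**
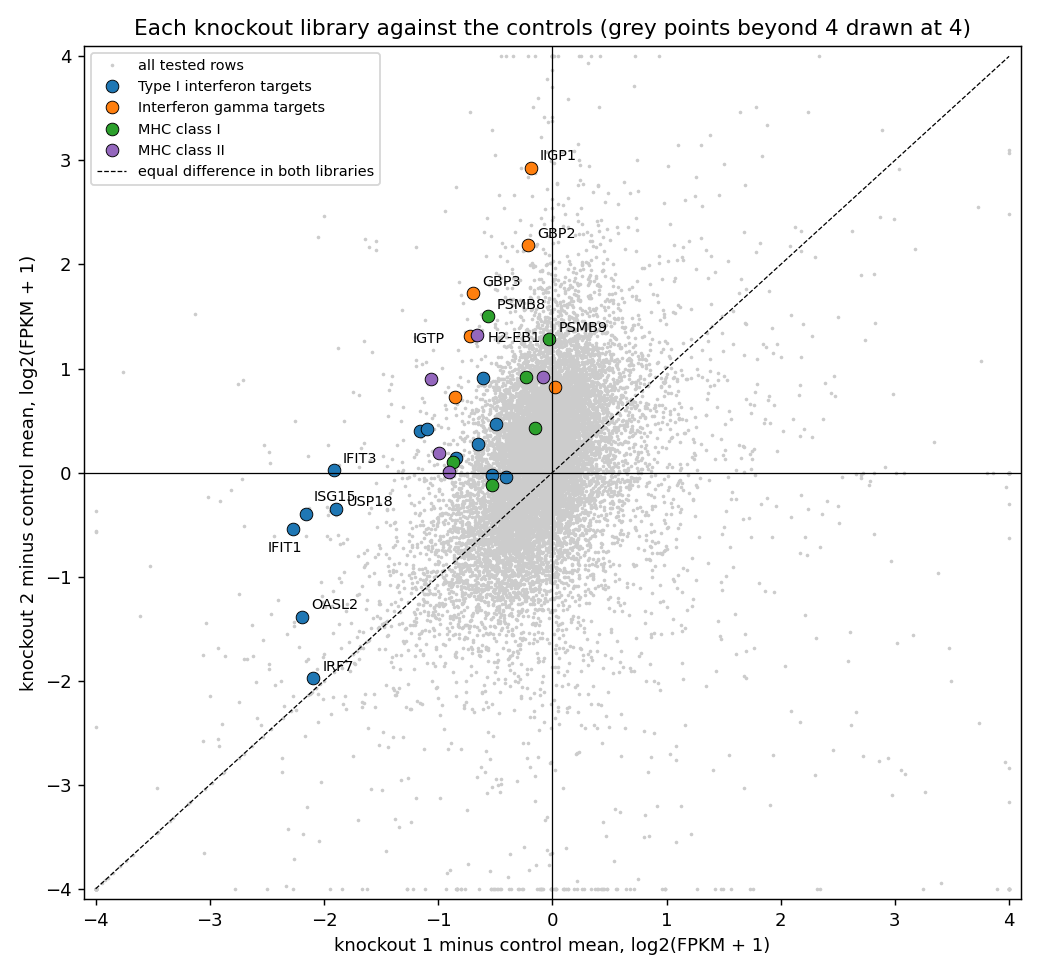
Difference of knockout 1 (horizontal) and of knockout 2 (vertical) from the control mean on the log2(FPKM + 1) scale; grey points are the 13716 tested rows and coloured points the 31 tested members by class. All members lie above the dashed line of equal difference; Irf7 (-2.09 and -1.98) lies nearest to it among the members far from 0, and Iigp1 (-0.19 and 2.93) is the highest.

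Interferon gamma targets were highest in knockout 2. All 6 were above the control mean there, with a median log2 difference of 1.52, and 4 were higher by at least 1 log2 unit (10.3% of all tested rows were). In knockout 1 the median was -0.45 and 5 of 6 were lower. The summed FPKM of the 6 was 84.3% of the control mean in knockout 1 and 2.25 times it in knockout 2; without Irf1, the target of highest FPKM, it was 54.8% and 3.02 times.

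Iigp1, an immunity-related GTPase that attacks the vacuoles of intracellular parasites, read 1.33 and 1.52 FPKM in the control libraries, 1.13 in knockout 1 and 17.5 in knockout 2. Knockout 2 was thus 12.3 times the control mean, with about 1300 fragments, while knockout 1 was below both controls. The log2 fold change of the groups was 1.37 (SE 1.14; limma adjusted p = 0.592).

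Guanylate-binding proteins, which coat and disrupt pathogen membranes, showed the same order of libraries. Gbp2 read 1.68 and 1.57 FPKM in the control libraries, 1.27 in knockout 1 and 10.9 in knockout 2 (log2 fold change 0.99, SE 0.888; limma adjusted p = 0.613). Gbp3 read 1.67 and 1.68 against 0.649 and 7.83 (log2 fold change 0.51, SE 0.897; limma adjusted p = 0.778). In both, the knockouts stood on opposite sides of nearly equal controls. Igtp, another immunity-related GTPase, read 5.92 and 5.27 against 3.003 and 15.4 FPKM, and Irgm1, a regulator of that family, 16.5 and 14.3 against 8.07 and 26.0. Igtp shares part of its span and strand with Irgm2, which read 12.02 and 12.4 against 5.94 and 18.0 FPKM, so the reads of the pair are uncertain.

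Irf1, a transcription factor induced early by interferon gamma, differed from this pattern in knockout 1. It read 43.5 and 43.9 FPKM in the control libraries, 44.4 in knockout 1 and 78.3 in knockout 2 (log2 fold change 0.42, SE 0.328; limma adjusted p = 0.573). It was the tested member with both knockouts above both controls, though knockout 1 exceeded control 2 by little.

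MHC class I genes were moderately lower in knockout 1 and mostly higher in knockout 2. The 6 tested genes had median log2 differences of -0.38 and 0.67, with 6 of 6 lower in knockout 1 and 5 of 6 higher in knockout 2. Their transactivator Nlrc5, below the filter, read 0.562 and 0.508 FPKM in the controls against 0.291 and 1.27.

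Psmb8, a catalytic subunit of the immunoproteasome, read 20.2 and 22.7 FPKM in the control libraries, 14.2 in knockout 1 and 62.7 in knockout 2. Psmb9, another such subunit, read 12.7 and 14.7 against 13.4 and 34.7 (log2 fold change 0.63, SE 0.502; limma adjusted p = 0.582). Knockout 2 was 2.92 and 2.53 times the control mean for these subunits. Tap1, which carries peptides into the endoplasmic reticulum, read 12.5 and 11.99 against 6.24 and 13.2 FPKM (log2 fold change -0.39, SE 0.383; limma adjusted p = 0.642). Tap1 and Psmb9 lie on opposite strands with overlapping spans, and in knockout 1 Tap1 was at 50.9% of its control mean and Psmb9 at 97.8%.

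The chains of the class I complex were among the members of highest FPKM. B2m, the invariant light chain, read 575 and 609 FPKM in the control libraries, 504 in knockout 1 and 1119 in knockout 2 (log2 fold change 0.34, SE 0.463; limma adjusted p = 0.716). The heavy chain H2-K1 read 309 and 293 against 271 and 406. H2-D1, the other classical heavy chain, read 363 and 343 against 245 and 324 (log2 fold change -0.32, SE 0.234; limma adjusted p = 0.561), and was the class I gene with both knockouts below both controls. B2m and H2-K1 thus had knockout 2 above the controls and H2-D1 had it below. H2 heavy chains are near-identical and vary between strains, so the division of reads between them is uncertain.

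MHC class II genes were lower than the controls in knockout 1 and level or higher in knockout 2. The 5 genes had a median log2 difference of -0.91 in knockout 1, with all 5 lower, and of 0.90 in knockout 2, with all 5 at or above the control mean. The summed FPKM was 52.2% and 129.6% of the control mean.

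H2-Aa, the alpha chain of I-A, read 139 and 152 FPKM in the control libraries, 69.0 in knockout 1 and 271 in knockout 2. H2-Ab1, its beta chain, read 134 and 145 against 69.4 and 159 (log2 fold change -0.40, SE 0.459; limma adjusted p = 0.677). Both chains were about equally low in knockout 1 (47.5% and 49.9% of the control mean), but in knockout 2 they were 1.87 and 1.14 times it. H2-Eb1, the beta chain of I-E, read 47.4 and 46.8 against 29.4 and 119 FPKM (log2 fold change 0.33, SE 0.734; limma adjusted p = 0.826).

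Cd74, the invariant chain that guides class II molecules to their peptides, read 409 and 413 FPKM in the control libraries, 219 in knockout 1 and 412 in knockout 2. Knockout 2 lay between the controls, so Cd74 did not share the higher level of H2-Aa and H2-Eb1 there (log2 fold change -0.45, SE 0.376; limma adjusted p = 0.592). Ciita, the transactivator of class II genes, read 1.41 and 1.27 against 1.21 and 3.42 FPKM (log2 fold change 0.42, SE 0.414; limma adjusted p = 0.639). Knockout 1 was thus close to the controls and knockout 2 was 2.55 times their mean. Dexi, on the opposite strand with a span that overlaps Ciita, read 11.6 and 10.4 against 9.72 and 9.46 FPKM.

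Markers of cells that carry class II or make interferon gamma moved with parts of this pattern. The summed FPKM of 10 dendritic cell markers was 11.5 and 11.4 in the controls, 7.01 in knockout 1 and 18.97 in knockout 2, with 4 of 10 past the filter and Cd209a at 0 in control 2. For 12 macrophage markers the sums were 244 and 246 against 198 and 404, and 7 of 11 tested had knockout 1 below and knockout 2 above both controls (22.6% of all tested rows). Lyz2 (lysozyme) read 51.5 and 44.5 against 56.1 and 157 FPKM, and without it the macrophage sum was 72.0% of the control mean in knockout 1 and 124.8% in knockout 2, in place of 80.8% and 164.6%. For 9 B cell markers the sums were 4.13 and 5.66 against 4.48 and 13.5, with 2 past the filter, Pax5 and Cr2 among those at 0 in knockout 1, and Blk at 0 in control 1. The part of these cells in the class II values was not tested.

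The 15 T and NK cell markers summed to 85.4 and 83.8 FPKM in the control libraries, 39.1 in knockout 1 and 49.2 in knockout 2. The granzymes Gzma and Gzmb, proteases of cytotoxic granules, made up most of these sums and were low in both knockouts, at 38.3 and 36.6 against 19.9 and 19.04 FPKM for Gzma and 31.2 and 27.8 against 13.1 and 13.1 for Gzmb. Without them the sums were 15.9 and 19.4 against 6.04 and 17.02, so knockout 1 was below the controls and knockout 2 between them. Of the 15 markers, 9 were tested, with median log2 differences of -0.88 in knockout 1 and -0.10 in knockout 2, and 7 of them read higher in knockout 2 than in knockout 1. Both knockouts lay below both controls for 4 of the 9 (30.2% of all tested rows) and above both for 0 (21.5%). These 4 were the granzymes, Cd3e and Cd8a. Cd3e read 1.68 and 2.31 FPKM in the controls against 0.819 and 1.04, and Cd8a 2.20 and 1.90 against 0.492 and 1.01. Cd8b1 was at 0 in knockout 1 and Klrb1c at 0 in control 2 and knockout 1. Ifng itself was listed at 0.0686 FPKM in control 1, at 0 in control 2 and knockout 1, and at 0.626 in knockout 2.

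Sums of epithelial markers were similar in both knockouts while those of differentiated and stromal markers were not. The sums of 8 epithelial markers were 115% of the control mean in each knockout library. Without Krt19 and Krt8, the pair of highest FPKM, they were 102.9% in knockout 1 and 103.4% in knockout 2. Single genes differed more, most of all Krt20 (159% in knockout 1 and 86.3% in knockout 2) and Epcam (96.8% and 137%). The 12 enterocyte markers summed to 149.6% of the control mean in knockout 1 and 12.2% in knockout 2, and the 6 smooth muscle markers to 106% and 382%. Of 8 neutrophil markers, 7 were in the table and summed to 308% and 222%. Without S100a9 and S100a8 the sums were 99.3% and 95.9%, and Ltf made up most of them (82.0% and 90.8% of its control mean). Csf3r (782% and 473%), Cxcr2 (490% and 499%) and Mmp8 (357% and 143%) were above the control mean in both knockouts. Ngp was at 621% in knockout 1 and at 0 in knockout 2. Cxcr2, Mmp8 and Ngp were below the filter. Whether these differences in tissue makeup have a part in the member values was not tested.

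**Figure D3:**
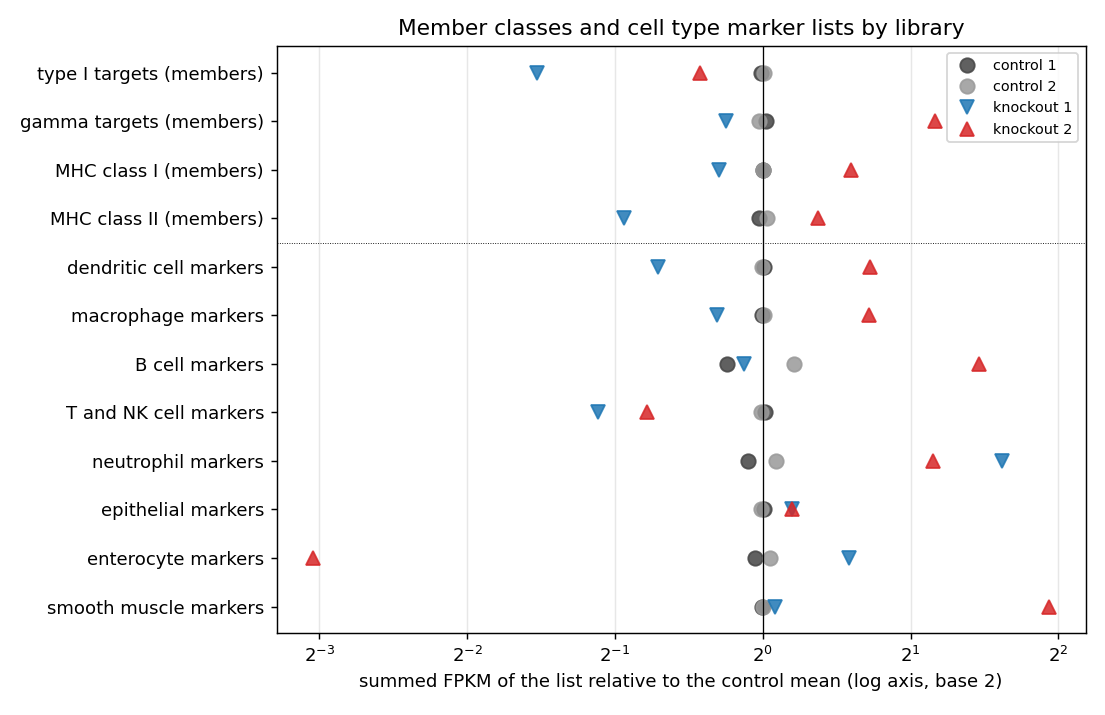
Summed FPKM of each member class (above the dotted line) and of each cell type marker list (below it), relative to the mean of the controls, on a log axis with base 2. Knockout 2 lies to the right of knockout 1 for the 4 member classes and for dendritic, macrophage, B, T and NK and smooth muscle markers, and to the left for enterocyte and neutrophil markers.

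Other genes of the pathway were read from lists of ligands, receptors, signal transducers and further targets. Of 122 listed genes, 114 were in the table and 91 tested, and 0 passed limma's test in either direction (0.0729% of all tested rows passed). An unadjusted limma p under 0.05 was reached by 10 of the 91, against 13.2% of all tested rows. Both knockouts were above both controls for 18 and below for 21 of the 91, against 21.5% and 30.2% of all tested rows.

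Interferon ligands were at or near 0. Of 7 ligand rows, Ifnb1, Ifna1, Ifna2 and Ifna4 were listed at 0 in all 4 libraries, and Ifnk and Ifne were at most 0.258 FPKM. Receptors were present in every library. Ifnar1, the first chain of the type I receptor, read 26.3 and 23.9 FPKM in the controls against 16.4 and 20.0 (limma adjusted p = 0.407). The gamma receptor chain Ifngr2 read 189 and 185 against 164 and 129, and Il10rb, shared by the interferon lambda receptor, 51.0 and 50.6 against 60.7 and 55.4. The 6 receptors had median log2 differences of -0.09 in knockout 1 and -0.17 in knockout 2, without the gap between the knockouts that the targets had.

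Signal transducers likewise had medians near 0 (-0.13 and -0.03 over 17 genes). Tmem173 (STING), the adaptor of the cytosolic DNA sensor, read 74.0 and 75.1 FPKM in the controls against 49.4 and 39.8 (log2 fold change -0.74, SE 0.188; limma adjusted p = 0.309). The receptor kinase Tyk2 read 14.4 and 14.3 against 10.1 and 10.04, and Trex1, which degrades cytosolic DNA, 13.5 and 15.5 against 11.1 and 6.49. These were low in both knockouts, as Irf7 was.

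Among 29 further tested type I targets the median log2 difference was -0.67 in knockout 1 and 0.07 in knockout 2, and 22 of the 29 read higher in knockout 2 than in knockout 1 (61.8% of all tested rows did). Their summed FPKM did not follow that order. Over the 33 rows in the table it was 60.05% of the control mean in knockout 1 and 53.7% in knockout 2, and without Ifitm3 and Ifitm2, the pair of highest FPKM, 62.9% and 70.3%. In 12 of the 29 both knockouts were below both controls, against 30.2% of all tested rows. Oas3 read 6.55 and 6.43 FPKM in the controls against 0.289 and 1.46 (log2 fold change -2.07, SE 0.384; limma adjusted p = 0.257). Ifitm1, a membrane protein that blocks virus entry, read 464 and 490.1 against 278 and 269, and Lgals3bp, a secreted glycoprotein, 318 and 324 against 201 and 144.

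In 12 further gamma targets the medians were -0.25 and 1.39, and 8 were higher by at least 1 log2 unit in knockout 2 (10.3% of all tested rows were). Nos2, the inducible nitric oxide synthase, went the other way and read 10.7 and 10.4 FPKM in the controls against 0.784 and 2.33 (log2 fold change -2.25, SE 0.366; limma adjusted p = 0.242). Cxcl10, a chemokine for T cells, read 0.561 and 1.15 against 1.24 and 7.07, and the tryptophanyl-tRNA synthetase Wars 50.8 and 50.1 against 56.9 and 75.4. Both had the knockouts above the controls.

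Further class I genes had medians of -0.02 and 0.61 over 20 genes, and class II genes of -0.19 and 0.20 over 7. The summed FPKM of the further class I genes in the table was 101.7% of the control mean in knockout 1 and 139.8% in knockout 2. That of the further class II genes was 137.7% and 160.5%, and without Ifi30, the gene of highest FPKM, 77.02% and 189.1%. Psmb10, the third catalytic subunit of the immunoproteasome, read 51.1 and 51.7 FPKM in the controls against 65.5 and 108 (limma adjusted p = 0.421), so it was above the controls in both knockouts, unlike Psmb8. The class I-like H2-M3 read 2.71 and 2.34 against 2.87 and 8.09, and H2-Q10 2.77 and 2.002 against 12.7 and 3.44. In the class II list, the lysosomal reductase Ifi30 read 76.4 and 90.6 against 182 and 102, the class II promoter factor Rfx5 5.52 and 5.85 against 4.89 and 5.03, and the protease Ctss, which trims the invariant chain, 60.4 and 57.4 against 41.4 and 145 FPKM.

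**Figure D4:**
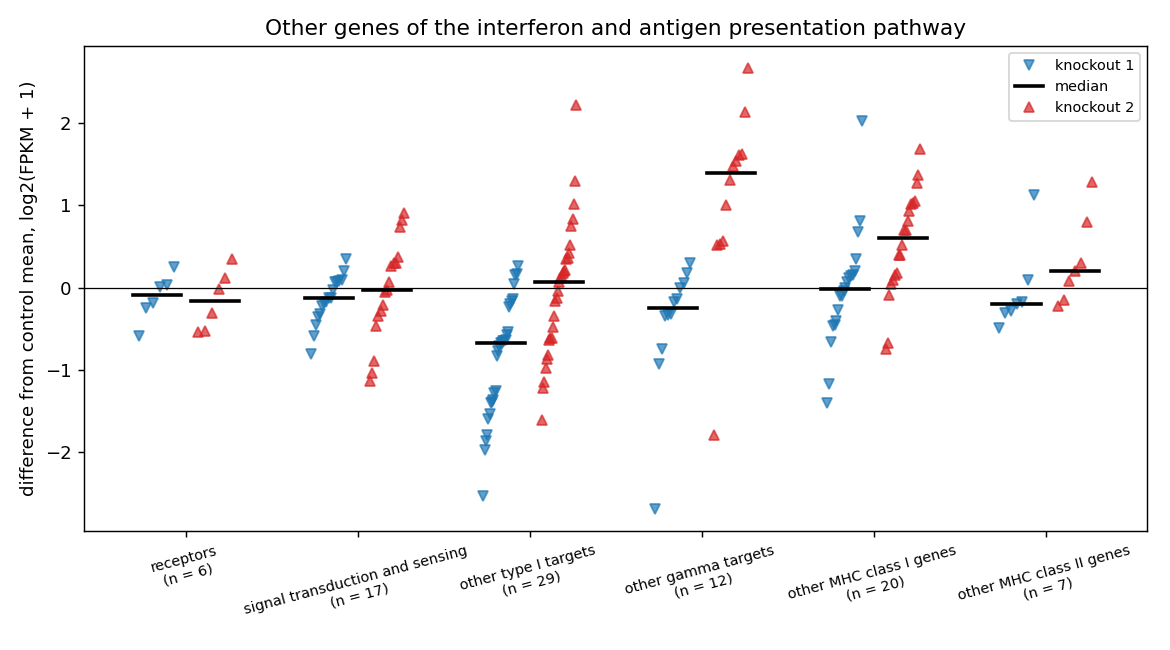
Difference of each knockout library from the control mean, on the log2(FPKM + 1) scale, for the tested genes of 6 further pathway lists; triangles are genes and black lines medians. The medians of the 2 libraries lie close together for receptors (-0.09 and -0.17) and apart for gamma targets (-0.25 and 1.39).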

How the data were processed

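RNA from 4 adenoma libraries was sequenced. Per the labels' protocols, RNA was purified on a column kit and libraries followed BGI and Illumina protocols. The authors deposited 1 table of FPKM values, 1 column for each library. The submitters' processing notes list TopHat2, Cuffdiff and mm9; the sources used here do not give versions, settings or the gene annotation. Of 29955 rows, 84 repeated a symbol and the row of higher mean was kept. The 13716 rows averaging 1 FPKM or more entered a limma fit (version 3.58.1, R 4.3.3) of log2(FPKM + 1) with a mean trend and Benjamini-Hochberg adjustment over all tested rows. Fold changes on that scale understate changes of low genes. Nothing in the labels says that libraries came from separate animals. The sex markers differ between knockouts 1 and 2, so these libraries did not share a single animal. For the controls the question is open. The p-values therefore measure only the spread between these samples. The steps were tested on simulated data.

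The worth of 1 fragment was estimated from genes with 1 GENCODE transcript of at least 1000 bases. Fragments of a member were then estimated with the length of its longest GENCODE transcript. These estimates are rough, since errors in depth and in transcript length add to counting error. Promoters were matched by symbol, since the build of the table differs. Members, gene lists and tests were chosen with earlier results of these data known. Values of some other genes are not reported here. All members are named; full statistics are given for the 4 tested members of smallest p in each class, and up to 3 genes of smallest p are named in each pathway list. Alternatives were pseudocounts of 0.1 and 0.01, no filter, a filter at 5 FPKM, quantile scaling, median centring, a replicate block, no trend, and leaving out each library.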

Additional observations from a re-analysis of the deposited data

How the results depend on the processing

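The count of members called stayed at 0 under both other pseudocounts, both other filters, both scalings, the block and no trend. The count over all rows, 10, was 4 with no filter, which adds low rows to the test. Leaving out 1 library moved it between 0 and 8397 and the members called between 0 and 21. The rows called were 2833 without knockout 2 and 8397 without knockout 1, and the members 21 and 20. Without control 1 or control 2, 0 rows were called. The median log2 difference of the type I targets ranged from -1.13 to 0.00 with 1 library left out, that of gamma targets from -0.45 to 1.52, of class I genes from -0.38 to 0.67 and of class II genes from -0.91 to 0.90.

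Ifih1 turned to 0.041 under quantile scaling and 0.045 under median centring. With 1 library left out, the log2 fold changes of 22 members took both signs: Ifih1 -0.49 to 0.47, Irgm1 -0.85 to 0.72, Zbp1 -1.16 to 0.40, Stat2 -0.65 to 0.27, Ifit3 -1.91 to 0.020, Oas1a -1.10 to 0.42, Rsad2 -0.84 to 0.14, Tap1 -0.87 to 0.10, Cd74 -0.91 to 0.0024, H2-Aa -1.06 to 0.90, H2-Ab1 -0.99 to 0.19, Ifit2 -0.61 to 0.91, Gbp2 -0.21 to 2.19, Gbp3 -0.70 to 1.72, Igtp -0.72 to 1.31, Iigp1 -0.19 to 2.93, Psmb8 -0.57 to 1.51, Psmb9 -0.026 to 1.28, B2m -0.23 to 0.92, H2-K1 -0.15 to 0.43, Ciita -0.079 to 0.92 and H2-Eb1 -0.66 to 1.32. The groups share replicate numbers 1 and 2, but the labels do not say that these pair the libraries, and same-numbered deviations from the group means had a correlation of -0.115 across rows. With the replicate block 13 rows and 0 members were called, and with the pairing crossed, an alternative chosen after seeing the data, 13 and 0. The depth limits the lowest values, such as Oas2 in knockout 1.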
